A study of Mus musculus with 9 samples.

Results

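Fc gamma receptors bind the constant part of IgG and let dendritic cells take up and respond to antibody-bound antigen. The genes described here are the 4 mouse IgG receptor genes Fcgr1, Fcgr2b, Fcgr3 and Fcgr4, the signalling chain genes Fcer1g and Tyrobp, and Fcgrt, which encodes the heavy chain of the neonatal Fc receptor. They were taken by gene symbol, as 7 of the 40879 symbols in the count files, and all 7 were found in all 9 files. Members were chosen as a receptor family, with earlier results of these data known.

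The cells were cDC2s, type 2 conventional dendritic cells, which are known for priming helper T cells, sorted from mouse bone marrow cultures. All cultures held 100 ng/ml recombinant human Flt3L and ran for 9 days. There were 3 groups of 3 libraries. The A20iKO group has the genotype A20fl/fl x CD11ccre, in which a Cre driven by CD11c, a gene switched on as dendritic cells form, deletes a floxed A20 gene (Tnfaip3); A20 is a ubiquitin-editing enzyme that limits NF-kB signalling. The WT+IFNa group is wild type given interferon alpha on day 5, and the WT group is wild type without it. The treatment protocol field names interferon alpha for all 9 libraries, whereas the titles and the treatment entry name it for the WT+IFNa libraries only, and the grouping follows these. The labels give no strain or age and do not say whether WT mice carried Cre or floxed alleles. Each group came from 3 mice per the series' design text; whether 1 library is 1 mouse is not given, and all 9 libraries held both Xist and Ddx3y counts, so p-values measure the spread between libraries, which may be technical.

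As background, the activating receptors encoded by Fcgr1, Fcgr3 and Fcgr4 have little signalling capacity of their own. They pair with the chain encoded by Fcer1g, whose ITAM, a tyrosine motif, is phosphorylated by Src family kinases and recruits the kinase Syk. The receptor encoded by Fcgr2b carries an inhibitory motif, the ITIM, which recruits the lipid phosphatase SHIP-1 (Inpp5d), so the balance of activating to inhibitory receptors sets how a cell responds to immune complexes. On dendritic cells the receptor encoded by Fcgr1, CD64, is low at rest and is widely used to tell monocyte-derived cells and macrophages from conventional dendritic cells, although CD64 has also been described on cDC2s during inflammation.

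Total counts ranged from 7187359 to 9518822 in A20iKO, from 7041519 to 10246810 in WT+IFNa and from 6900598 to 10552756 in WT libraries. Levels below are CPM, which relate a count to the library total after TMM scaling, with the mean ± SD of n = 3 libraries. Reads come from transcript 3′ ends, 1 site per molecule, so long and short transcripts can be set side by side. Tnfaip3 stood at 43.7 ± 8.98 CPM in A20iKO, 9.56 ± 1.53 CPM in WT+IFNa and 11.3 ± 10.0 CPM in WT, but a 3′ tag outside the deleted exons checks nothing about the deletion. Collagen transcripts varied within groups: Col1a1 was at 2720, 469 and 286 CPM in A20iKO replicates 1, 2 and 3, at 380, 1475 and 3105 CPM in WT+IFNa and at 461, 2750 and 1008 CPM in WT. The highest library of each group (A20iKO replicate 1, WT+IFNa replicate 3 and WT replicate 2) is called high in collagen, and results are given without these 3 libraries where they touch a member. All 10 cDC2 markers looked for had counts in every group.

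Between A20iKO and WT, 1 of the 7 members rose (Fcgr1) and 3 fell (Fcgr2b, Fcgrt and Tyrobp). Among all 13251 genes tested, 5.77% were called higher, 4.91% lower and 10.7% either way in that comparison (edgeR quasi-likelihood test, Benjamini-Hochberg adjusted p under 0.05). Between WT+IFNa and WT, 1 member rose (Fcgr1) and 1 fell (Fcgr2b), where 2.4% of all genes were called higher, 0.702% lower and 3.1% either way. Between A20iKO and WT+IFNa, 1 member was higher (Fcgr2b) and 1 lower (Fcgrt), where 2.05% of all genes were called higher, 3.41% lower and 5.46% either way. Any pair of these comparisons shares a group of libraries, so their values for a gene are not independent of each other. With 7 members, these counts describe the family and no test was made of the family as a whole.

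**Figure D1:**
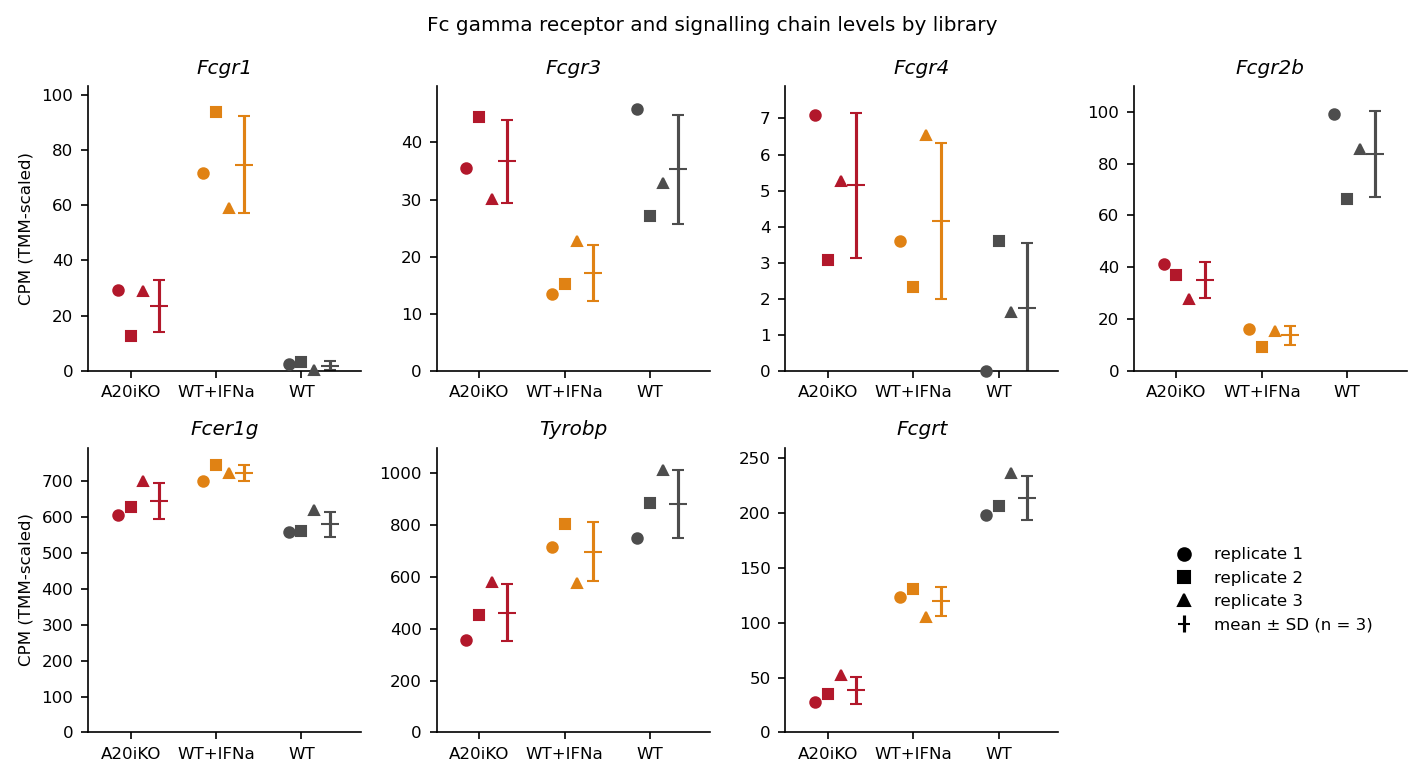
Level of each member in CPM (TMM-scaled, y axis, starting at 0) in the A20iKO, WT+IFNa and WT libraries; symbols are single libraries and the bar at the right of each group is the mean ± SD of n = 3, cut at 0 for Fcgr4 in WT. Fcgr1 is highest in WT+IFNa (74.7 CPM on average) and lowest in WT (1.92 CPM), Fcgr2b and Fcgrt are highest in WT, and Fcer1g lies between 559 and 747 CPM in all 9 libraries.

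**Figure D2:**
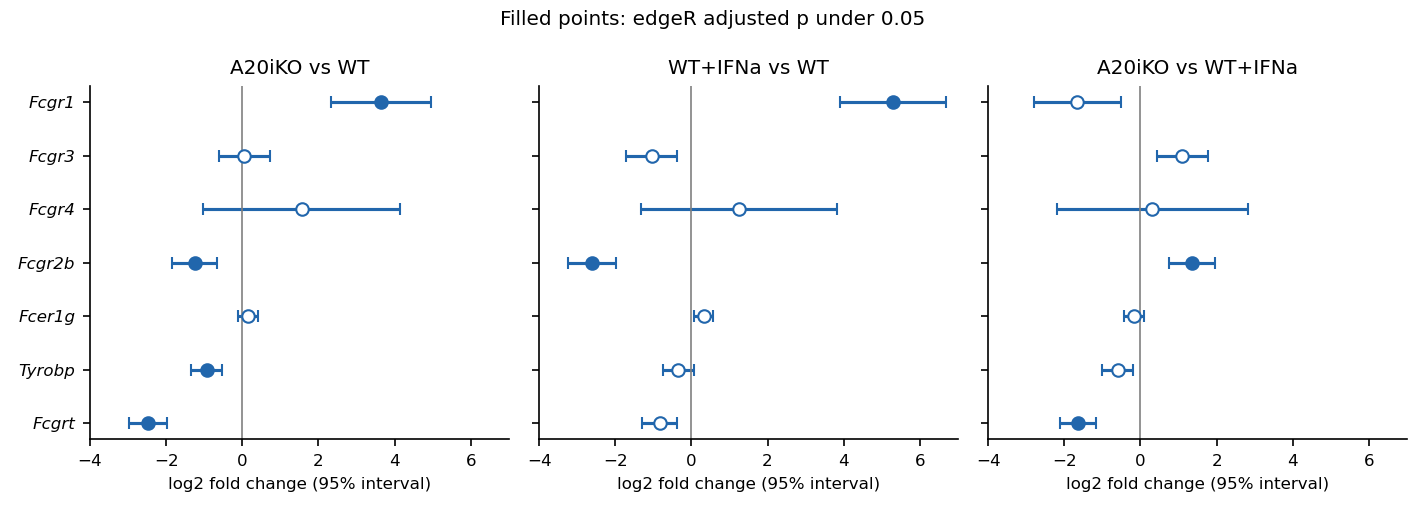
Log2 fold change of each member (x axis) in the 3 comparisons, with 95% intervals derived from the edgeR F statistic; filled points passed an adjusted p of 0.05. Fcgr1 lies at 3.64 and 5.30 over WT and Fcgr2b at -1.25 and -2.61, while Fcer1g lies within 0.32 of 0 in all 3.

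Fcgr1 encodes the high-affinity IgG receptor CD64. It stood at 29.2, 12.7 and 29.0 CPM in A20iKO replicates 1, 2 and 3, at 71.7, 93.5 and 58.8 CPM in the WT+IFNa libraries and at 2.35, 3.21 and 0.203 CPM in the WT libraries. The 3 groups did not overlap, and WT replicate 3 held 2 counts against 24 in each of the other WT libraries.

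The mean of Fcgr1 in A20iKO was 12.3 times that in WT, a log2 fold change of 3.64 (SE 0.608; edgeR Benjamini-Hochberg adjusted p = 0.00157). With WT+IFNa against WT it was 38.8 times, a log2 fold change of 5.30 (SE 0.640; edgeR adjusted p = 0.000258). Without the 3 libraries high in collagen these log2 fold changes were 4.00 and 5.99. A20iKO libraries held 31.6% of the WT+IFNa mean, a log2 fold change of -1.66 (SE 0.527, 95% interval -2.80 to -0.52), which did not pass (edgeR adjusted p = 0.0988). It passed in 6 of 18 alternative settings, whose adjusted p spanned 2.97e-05 to 0.341. Fcgr1 was tested because of its A20iKO and WT+IFNa libraries: only 2 of its WT libraries reached the level the filter asks for.

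The 250 bases upstream of the annotated start of Fcgr1 are shown because the gene rose in both comparisons with WT, with those of Fcgr4, the other activating receptor gene with few WT counts, and of Fcgr2b, which fell in both. Sequences are from RefSeq on GRCm38.p6, another build than the GRCm39 of the counts, and run 5′ to 3′ on the strand of the gene: chr3:96293970-96294219, minus strand, for Fcgr1; chr1:171018676-171018925, plus strand, for Fcgr4; chr1:170976072-170976321, minus strand, for Fcgr2b. Capitals mark matches to any of 4 motifs searched on both strands.
Fcgr1: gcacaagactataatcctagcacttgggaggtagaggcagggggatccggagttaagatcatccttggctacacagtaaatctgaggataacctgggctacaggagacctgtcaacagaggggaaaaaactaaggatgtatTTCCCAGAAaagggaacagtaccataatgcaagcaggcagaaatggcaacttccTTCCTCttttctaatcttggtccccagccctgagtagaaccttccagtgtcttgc
Fcgr4: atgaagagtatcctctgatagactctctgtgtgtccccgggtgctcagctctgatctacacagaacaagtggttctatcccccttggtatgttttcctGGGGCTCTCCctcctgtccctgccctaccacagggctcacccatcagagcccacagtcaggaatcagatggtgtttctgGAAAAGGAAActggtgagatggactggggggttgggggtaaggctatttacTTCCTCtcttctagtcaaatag
Fcgr2b: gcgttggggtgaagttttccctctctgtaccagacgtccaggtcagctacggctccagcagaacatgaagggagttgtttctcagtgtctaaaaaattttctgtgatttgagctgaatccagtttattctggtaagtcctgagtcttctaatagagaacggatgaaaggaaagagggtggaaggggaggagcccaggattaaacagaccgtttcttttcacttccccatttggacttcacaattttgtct

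The motifs were TTCNNNGAA, the GAS-type element read by STAT dimers, the ISRE-type core read by interferon-induced complexes, which is GAAA, any 2 bases and GAAA again, GAGGAA, a core of the myeloid factor PU.1, and the NF-kB (kB) motif. Fcgr1 had a GAS-type match 109 to 101 bases before its start and a PU.1-type match 55 to 50 bases before it. Fcgr4 had an ISRE-type match 73 to 64 bases before its start, a PU.1-type match 22 to 17 bases before it and a kB match 152 to 143 bases before it. Fcgr2b had no match in this window, nor did Fcgrt or Fcer1g, while Fcgr3 had a kB and a PU.1-type match. Of 32851 RefSeq promoter windows of this length, 7.02% held the GAS-type, 2.98% the ISRE-type, 23.3% the PU.1-type and 3.90% the kB motif. A match describes these letters and is not a binding site. Of the 7 members, 6 had a promoter in the table.

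Fcgr3 encodes the low-affinity activating receptor CD16. Its level was 35.5, 44.4 and 30.1 CPM in A20iKO, 13.4, 15.2 and 22.7 CPM in WT+IFNa and 45.8, 27.2 and 32.8 CPM in WT libraries. The A20iKO and WT libraries overlapped, and all WT+IFNa libraries lay below all others.

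Between A20iKO and WT the log2 fold change of Fcgr3 was 0.055 (95% interval -0.61 to 0.72; edgeR adjusted p = 0.957), and its sign turned (-0.076) without the 3 libraries high in collagen. With WT+IFNa against WT it was -1.05 (95% interval -1.72 to -0.37), which did not pass (edgeR adjusted p = 0.112; 0.0537 to 0.344 over 18 alternatives). A20iKO against WT+IFNa gave 1.10 (95% interval 0.43 to 1.78; edgeR adjusted p = 0.0621), past the threshold in 7 of 18 alternatives, with adjusted p from 0.0218 to 0.262.

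Fcgr4 encodes another activating receptor, found on monocytes and neutrophils among other mouse cells. It was the lowest of the 7 in A20iKO and WT+IFNa libraries and had 7.10, 3.06 and 5.27 CPM in A20iKO, 3.60, 2.32 and 6.54 CPM in WT+IFNa and 0, 3.61 and 1.62 CPM in WT libraries. The groups overlapped. The WT libraries held 0, 27 and 16 counts in replicates 1, 2 and 3, and a count of 0 allows up to 3 counts in that library. The log2 fold change was 1.56 for A20iKO (95% interval -1.02 to 4.15; edgeR adjusted p = 0.521) and 1.25 for WT+IFNa against WT (95% interval -1.32 to 3.83; edgeR adjusted p = 0.776). No change was detected, with few counts and a wide spread between libraries. The small RNA gene Gm26110 overlaps Fcgr4 on the same strand and held 19 counts in A20iKO replicate 2 and none in the other libraries.

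Fcgr2b encodes the inhibitory receptor. It stood at 41.1, 36.9 and 27.6 CPM in A20iKO, at 16.2, 9.39 and 15.5 CPM in WT+IFNa and at 99.1, 66.2 and 85.7 CPM in WT libraries. Levels were highest in WT, intermediate in A20iKO and lowest in WT+IFNa, with no overlap between any pair of groups.

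Fcgr2b fell to 42.1% of the WT mean in A20iKO libraries, a log2 fold change of -1.25 (SE 0.274; edgeR adjusted p = 0.00964). That call was lost without A20iKO replicate 3 (log2 fold change -1.11, edgeR adjusted p = 0.0533) or WT replicate 1 (-1.10, edgeR adjusted p = 0.0501). In WT+IFNa it fell to 16.4% of the WT mean, a log2 fold change of -2.61 (SE 0.289; edgeR adjusted p = 0.000124), the 69th smallest p of 13251 genes. A20iKO libraries held 2.57 times the WT+IFNa mean (log2 fold change 1.36, SE 0.281; edgeR adjusted p = 0.0117), a call lost without WT+IFNa replicate 2 (1.16, edgeR adjusted p = 0.0593). The annotated 3′ ends of Fcgr2b transcripts held 33 of 1467 words of 50 bases that also occur in Fcgr3 transcripts, while the last 500 bases of the other 6 members shared no such word with another gene. Fcgr2b and Fcgrt each overlap an antisense gene, Gm38204 and Gm45669, and since the strand setting of the counting is not stated, reads of these pairs may not be told apart.

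The 4 IgG receptors differed between groups more in make-up than in summed level. Their summed level was 101 ± 10.9 CPM in A20iKO, 110 ± 9.35 CPM in WT+IFNa and 123 ± 23.6 CPM in WT, ranges that overlapped. Fcgr2b made up 34.8% ± 4.24 of the 4 receptors' counts in A20iKO, 12.7% ± 4.28 in WT+IFNa and 68.2% ± 2.69 in WT. Fcgr1 made up 23.5% ± 9.43 in A20iKO, 67.6% ± 10.4 in WT+IFNa and 1.66% ± 1.52 in WT. Fcgr3 made up 36.6% ± 7.90 in A20iKO, 15.8% ± 5.35 in WT+IFNa and 28.5% ± 2.27 in WT. The leading receptor gene was thus Fcgr2b in all 3 WT libraries, Fcgr1 in all 3 WT+IFNa libraries, and Fcgr2b or Fcgr3 in A20iKO libraries.

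The ratio of activating receptor counts (Fcgr1, Fcgr3 and Fcgr4 summed) to Fcgr2b counts was 1.74, 1.63 and 2.33 in A20iKO replicates 1, 2 and 3, 5.46, 11.8 and 5.70 in WT+IFNa and 0.486, 0.513 and 0.404 in WT libraries. Every WT library held fewer activating than inhibitory receptor counts, and every A20iKO and WT+IFNa library held more. The ratio is a sum over members and was not tested.

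**Figure D3:**
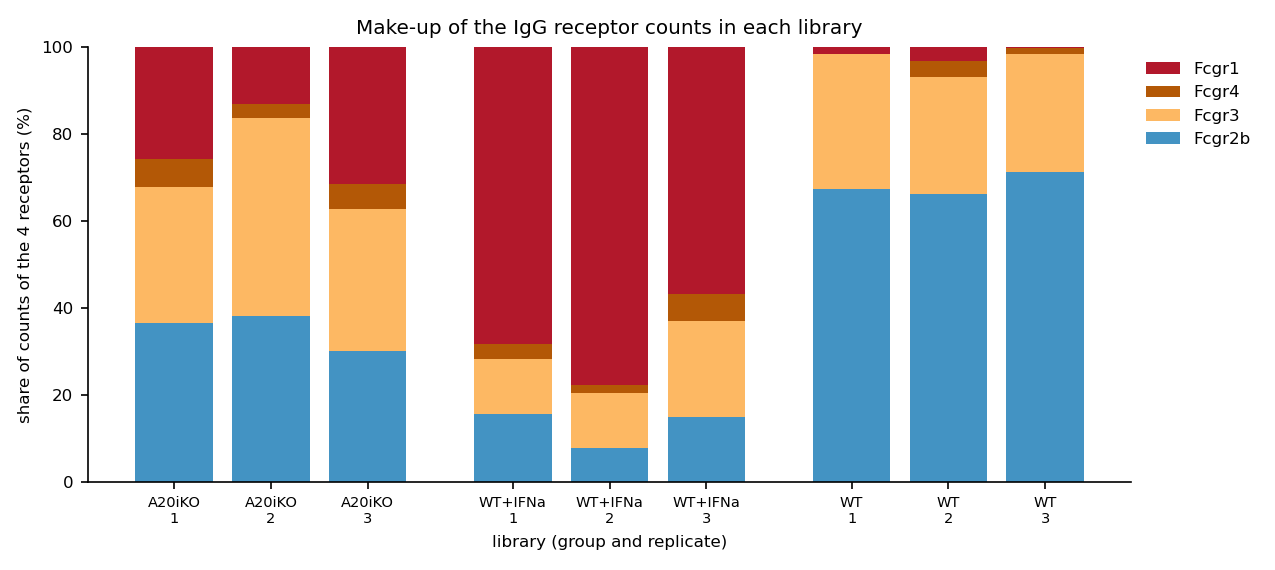
Share of the counts of Fcgr1, Fcgr2b, Fcgr3 and Fcgr4 taken by each gene (y axis, percent of the 4 genes' counts) in each library. Fcgr2b takes 66.1% to 71.2% in the WT libraries, and Fcgr1 takes 56.8% to 77.7% in the WT+IFNa libraries and 13.1% to 31.5% in the A20iKO libraries.

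Fcer1g, whose ITAM chain the activating receptors need at the surface, was among the most abundant transcripts. It had 606, 628 and 701 CPM in A20iKO, 702, 747 and 724 CPM in WT+IFNa and 559, 562 and 620 CPM in WT libraries. Its mean ranked 148th of 13251 genes in A20iKO, 144th in WT+IFNa and 196th in WT. The A20iKO and WT libraries overlapped, and all WT+IFNa libraries lay above all others, the nearest being A20iKO replicate 3.

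No difference in Fcer1g passed the test. The log2 fold change was 0.15 for A20iKO against WT (95% interval -0.11 to 0.41; edgeR adjusted p = 0.534), 0.32 for WT+IFNa against WT (95% interval 0.062 to 0.58; edgeR adjusted p = 0.238) and -0.17 for A20iKO against WT+IFNa (95% interval -0.43 to 0.090; edgeR adjusted p = 0.585). Fcer1g counts outnumbered the summed activating receptor counts 9.92 ± 1.30 times in A20iKO, 7.62 ± 0.789 times in WT+IFNa and 15.3 ± 3.32 times in WT.

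Tyrobp encodes DAP12, the other ITAM chain of myeloid cells, which serves receptors such as TREM2 and Siglec-H instead of Fc gamma receptors. It had 357, 452 and 579 CPM in A20iKO, 714, 804 and 576 CPM in WT+IFNa and 751, 885 and 1014 CPM in WT libraries. All A20iKO libraries lay below all WT libraries, and WT+IFNa libraries overlapped with both.

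Tyrobp fell to 52.4% of the WT mean in A20iKO (log2 fold change -0.93, SE 0.189; edgeR adjusted p = 0.00590; -0.77 without the 3 libraries high in collagen). For WT+IFNa against WT the log2 fold change was -0.34 (95% interval -0.75 to 0.067; edgeR adjusted p = 0.509). For A20iKO against WT+IFNa it was -0.59 (95% interval -1.001 to -0.19; edgeR adjusted p = 0.0994), past the threshold in 2 of 18 alternatives, with adjusted p from 0.0122 to 0.316. In A20iKO and WT+IFNa, Tyrobp was lowest in the library highest in Col1a1, and in WT it was not. The ratio of Tyrobp to Fcer1g counts was 0.712 ± 0.119 in A20iKO, 0.963 ± 0.148 in WT+IFNa and 1.52 ± 0.153 in WT, so the WT libraries held more Tyrobp than Fcer1g and the A20iKO libraries less.

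Fcgrt encodes the heavy chain of FcRn, which sits in endosomes, returns IgG and albumin to the surface and, in dendritic cells, carries immune complexes toward antigen processing. It had 28.0, 35.2 and 51.9 CPM in A20iKO, 123, 130 and 105 CPM in WT+IFNa and 198, 206 and 237 CPM in WT libraries. The 3 groups did not overlap. The mean ranked 4350th of 13251 genes in A20iKO, 1550th in WT+IFNa and 711th in WT.

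Fcgrt fell to 18.0% of the WT mean in A20iKO, a log2 fold change of -2.47 (SE 0.225; edgeR adjusted p = 1.30e-05), again the 69th smallest p of its comparison, and it passed in all 18 alternatives. A20iKO libraries held 32.1% of the WT+IFNa mean (log2 fold change -1.64, SE 0.220; edgeR adjusted p = 0.000635), past the threshold in all 18 alternatives. WT+IFNa libraries held 56.0% of the WT mean, a log2 fold change of -0.84 (95% interval -1.30 to -0.37) just outside the threshold (edgeR adjusted p = 0.0559). That value was past it in 9 of 18 alternatives, with adjusted p from 0.00444 to 0.209.

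B2m, the light chain that FcRn shares with MHC class I, rose in both comparisons with WT. It averaged 6070.4 ± 806 CPM in A20iKO and 2766 ± 74.6 CPM in WT, a log2 fold change of 1.13 (SE 0.114; edgeR adjusted p = 2.84e-05). In WT+IFNa it averaged 7881 ± 761 CPM, a log2 fold change over WT of 1.51 (SE 0.115; edgeR adjusted p = 3.69e-06).

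Set side by side, the order of the 7 levels differed between groups. In A20iKO it ran Fcer1g, Tyrobp, Fcgrt, Fcgr3, Fcgr2b, Fcgr1 and Fcgr4, and Fcgrt, Fcgr3 and Fcgr2b (38.4, 36.7 and 35.2 CPM), and Fcgr2b and Fcgr1, overlapped in their libraries. In WT+IFNa it ran Fcer1g, Tyrobp, Fcgrt, Fcgr1, Fcgr3, Fcgr2b and Fcgr4, and the neighbours Fcer1g and Tyrobp, and Fcgr3 and Fcgr2b, overlapped likewise. In WT it ran Tyrobp, Fcer1g, Fcgrt, Fcgr2b, Fcgr3, Fcgr1 and Fcgr4, and Fcgr1 and Fcgr4 (1.92 ± 1.55 and 1.75 ± 1.81 CPM) were the neighbours that overlapped.

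Of the 7 members, 4 had no overlap between the A20iKO and WT libraries, against 28% of all genes tested. It was 5 between WT+IFNa and WT (18.2% of all genes) and 5 between A20iKO and WT+IFNa (24.6% of all genes).

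The genes whose log2 level followed a member most closely over the 9 libraries were ranked by Pearson correlation, as a description over libraries that share the same 3 groups. For Fcgr1 these were Slfn8 (r = 0.991), Gbp9 (0.987) and Igtp (0.986), of interferon-inducible gene families. For Fcgrt they were the lectin gene Cd209a (0.993), Mbnl1 (0.988), an RNA-binding protein gene, and the immediate-early gene Ier2 (0.987). For Fcgr2b they included Rbm4b (0.949), and for Tyrobp they were Brms1 (0.977), Vps37c (0.973) and Uckl1 (0.972).

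Kinases, adaptors and effectors downstream of an ITAM held calls in both directions. Of 25 tested, 5 rose, 2 fell and 18 were not called in A20iKO against WT, at a median log2 fold change of 0.039 against -0.011 for all genes. Among all genes tested, 10.7% were called either way in that comparison. The share was 3.1% in WT+IFNa against WT and 5.46% in A20iKO against WT+IFNa. These shares also stand beside the counts of the lists that follow. Those that rose included the Src family kinase gene Fgr (133 ± 17.6 CPM in A20iKO and 20.9 ± 5.44 CPM in WT; log2 fold change 2.67, SE 0.248; edgeR adjusted p = 1.47e-05). Prkcd, a protein kinase C gene, averaged 273 ± 19.2 CPM in A20iKO and 148 ± 18.9 CPM in WT (edgeR adjusted p = 0.00180), and Lcp2, the adaptor SLP-76, 56.4 ± 10.4 CPM in A20iKO and 25.9 ± 5.83 CPM in WT (edgeR adjusted p = 0.0128). Lcp2 lost its call without A20iKO replicate 2 (edgeR adjusted p = 0.0778). The 2 that fell, Lyn and Lat2 (log2 fold changes -0.66 and -0.57), did not pass without A20iKO replicate 1 or 2 or WT replicate 1 or 3. Syk itself had 137 ± 20.3 CPM in A20iKO and 133 ± 37.7 CPM in WT (edgeR adjusted p = 0.955).

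With WT+IFNa against WT, 2 of the same 25 rose and none fell, none being lower at an unadjusted edgeR p under 0.05 either, at a median of 0.092 against -0.025 for all genes. Lcp2 was among them (63.4 ± 14.0 CPM in WT+IFNa and 25.9 ± 5.83 CPM in WT; edgeR adjusted p = 0.0137), and it lost its call without WT+IFNa replicate 1 or 2 (edgeR adjusted p = 0.0728 and 0.0679). A20iKO against WT+IFNa gave 1 higher, Fgr (34.4 ± 6.13 CPM in WT+IFNa; edgeR adjusted p = 0.000306), and 3 lower, at a median of -0.13 against 0.018. The 3 lower were Lyn, a Src family kinase gene, Lat2 and Pik3r1, with edgeR adjusted p of 0.0171, 0.0235 and 0.0468. Lyn lost its call without A20iKO replicate 1 or 2 or WT+IFNa replicate 1 or 2, and Lat2 without each A20iKO library or WT+IFNa replicate 1 or 3. Pik3r1 lost its call without each A20iKO and WT+IFNa library or WT replicate 3. The largest edgeR adjusted p was 0.0864 for Lyn and 0.237 for Pik3r1, in each case without WT+IFNa replicate 1.

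Of 16 phosphatases and adaptors that restrain these signals, 0 rose by edgeR, DESeq2 or limma-voom and 3 fell by edgeR in A20iKO against WT. Their median log2 fold change was -0.049 against -0.011 for all genes, of which 4.91% were called lower by edgeR. Inpp5d, the SHIP-1 phosphatase recruited by the Fcgr2b receptor, averaged 81.3 ± 22.8 CPM in A20iKO and 174 ± 35.9 CPM in WT (log2 fold change -1.10, SE 0.226; edgeR adjusted p = 0.00650). The adaptor gene Dok3 averaged 46.0 ± 4.47 CPM in A20iKO and 86.2 ± 7.57 CPM in WT (edgeR adjusted p = 0.00503). Sla (81.8 ± 8.90 CPM in A20iKO and 126 ± 6.13 CPM in WT; edgeR adjusted p = 0.0447) was lost without 8 of the 9 single libraries, with edgeR adjusted p up to 0.179 without A20iKO replicate 2. With WT+IFNa against WT, 0 of 16 passed by edgeR, DESeq2 or limma-voom, and 0 had an unadjusted edgeR p under 0.05, at a median of 0.15 against -0.025. Between A20iKO and WT+IFNa, Dok3 alone was lower (107 ± 12.2 CPM in WT+IFNa; edgeR adjusted p = 0.00131).

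Other receptors that use the Fcer1g or Tyrobp chains split. Of 15 tested, 7 rose and 3 fell in A20iKO against WT, where 10.7% of all genes were called either way. Their median log2 fold change was 1.16 against -0.011 for all genes. Some that rose had few WT counts: Trem2 held 1, 0 and 0 and Pilrb2 0, 1 and 0 in WT replicates 1, 2 and 3. These were tested because of the groups in which they are high, so the number that rose and the median may lean upward. The lectin receptor genes Clec4n, Clec4d and Clec4e, whose products signal through the Fcer1g chain, rose together. Clec4n averaged 218 ± 30.7 CPM in A20iKO and 33.0 ± 8.45 CPM in WT (edgeR adjusted p = 4.76e-05), Clec4e 86.1 ± 8.39 CPM in A20iKO and 2.65 ± 2.75 CPM in WT (edgeR adjusted p = 0.00129), and Clec4d 51.8 ± 7.53 CPM in A20iKO and 2.33 ± 3.08 CPM in WT (edgeR adjusted p = 0.00170). Siglech, whose product uses DAP12, fell to 63.0 ± 13.6 CPM in A20iKO, against 242 ± 29.4 CPM in WT (edgeR adjusted p = 4.12e-05). The other genes that rose were Clec5a (43.8 ± 13.6 CPM in A20iKO and 2.69 ± 3.07 CPM in WT), Trem2, Pilrb1 and Pilrb2. Cd300c2 and Klrk1 also fell. The product of Trem2 uses DAP12 too, so genes of receptors on that chain went both ways.

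With WT+IFNa against WT, 2 of these 15 rose and none fell, with 2 lower at an unadjusted edgeR p under 0.05, at a median of 0.48 against -0.025. Klrk1, the gene of the NKG2D receptor, averaged 108 ± 12.3 CPM in WT+IFNa and 39.0 ± 4.22 CPM in WT (edgeR adjusted p = 0.0106; lost at 0.0556 without WT+IFNa replicate 1). Trem2 held 121 counts in the 3 WT+IFNa libraries and 1 count in the 3 WT libraries, a ratio of 136 (95% exact interval 23.9 to 5403, counting error only). Its call (edgeR adjusted p = 0.0141) was lost at 0.0566 without WT+IFNa replicate 3 and 0.0547 without WT replicate 3. Without the 3 libraries high in collagen neither call held (edgeR adjusted p = 0.0579 for Klrk1 and 0.118 for Trem2). Between A20iKO and WT+IFNa, 4 were higher and 3 lower, at a median of 0.63 against 0.018, among them Clec4n, Clec4e, Klrk1 (19.8 ± 9.06 CPM in A20iKO and 108 ± 12.3 CPM in WT+IFNa) and Siglech. The count of higher genes was 2 without any 1 of the A20iKO libraries or without WT+IFNa replicate 1 or 2.

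Of 13 other receptors and binding proteins for immunoglobulin, 5 had enough counts to be tested and 0 passed against WT by edgeR, with 1 higher at an unadjusted p under 0.05 in each comparison with WT. DESeq2 and limma-voom each called 1 higher in A20iKO against WT and 0 in WT+IFNa against WT. Other edgeR settings also called 1 higher in A20iKO against WT: no filter, the 3 libraries high in collagen left out, and WT replicate 2 left out. Without WT replicate 2, edgeR called 1 higher in WT+IFNa against WT too. The list's median log2 fold change was 1.14 in A20iKO against WT, 1.20 in WT+IFNa against WT and 0.77 in A20iKO against WT+IFNa. For all genes it was -0.011, -0.025 and 0.018 in the same order. Among them Ms4a2, with 0, 17 and 0 counts in WT replicates 1, 2 and 3, was tested because of the other groups. Trim21, a cytosolic antibody receptor gene, averaged 9.80 ± 1.31 CPM in A20iKO and 26.1 ± 7.00 CPM in WT+IFNa (edgeR adjusted p = 0.0449), a call that was lost without each A20iKO and each WT+IFNa library, with edgeR adjusted p from 0.0521 to 0.218.

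**Figure D4:**
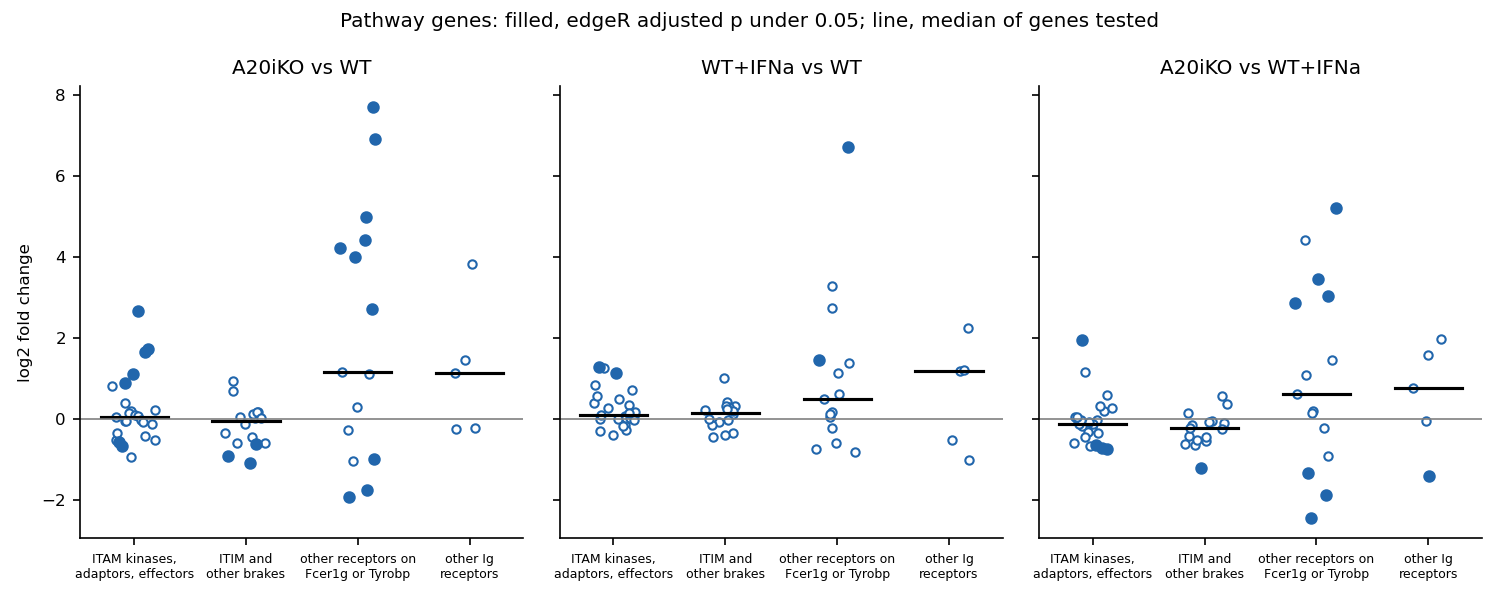
Log2 fold change (y axis) of the tested genes of 4 pathway lists in the 3 comparisons; each point is a gene, filled where the edgeR adjusted p is under 0.05, and the line is the list's median. In A20iKO against WT the other receptors on the Fcer1g or Tyrobp chains spread widest, with 7 filled points above 0 and 3 below, and the signalling genes lie around a median of 0.039.

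Markers of cDC2s and of other cell types also differed between groups. The summed level of 15 monocyte and macrophage markers was 2880 to 3217 CPM in A20iKO, 2390 to 2908 CPM in WT+IFNa and 1233 to 1522 CPM in WT libraries. In A20iKO against WT, 12 of the 15 rose and 1 fell, where 10.7% of all genes were called either way. With WT+IFNa against WT it was 3 and 1, where 3.1% of all genes were called. Ly6c2 alone averaged 741 ± 115 CPM in A20iKO, 679 ± 103 CPM in WT+IFNa and 26.0 ± 10.7 CPM in WT, a large part of the difference in sums from WT. All 15 markers had counts in every group, although Marco held 0 counts in WT replicates 1 and 2 and 1 count in WT replicate 3. Mertk held 6, 4 and 2 counts in WT replicates 1, 2 and 3. Both were tested because of the groups in which they are high, so the number that rose may lean upward. The sums of the WT+IFNa and A20iKO libraries overlapped, but single markers differed. In A20iKO against WT+IFNa, 4 of the 15 were higher (Mertk, Cd14, Csf1r and Gpnmb) and 1, Ccr2, lower. In that comparison 5.46% of all genes were called either way. Csf1r averaged 594 ± 38.9 CPM in A20iKO and 186 ± 7.11 CPM in WT+IFNa, and Ccr2 567 ± 91.3 CPM in A20iKO and 1065 ± 212 CPM in WT+IFNa. The summed cDC2 markers were 4632 to 5231 CPM in A20iKO, 6535 to 7473 CPM in WT+IFNa and 8801 to 11459 CPM in WT, and 8 of 10 fell in A20iKO against WT, Cd209a, Clec10a and Irf4 among them, while Sirpa rose. Most of this sum was the class II gene H2-Ab1, at 3809 ± 215 CPM in A20iKO, 5392 ± 376 CPM in WT+IFNa and 8502 ± 1116 CPM in WT. In WT+IFNa against WT, 3 of the 10 cDC2 markers fell (Flt3, Cd209a and H2-Ab1) and 0 rose. A link between these marker sums and the members' levels was not tested.

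B cells carry Fcgr2b and NK cells carry Fcgr3 and Tyrobp. The 6 B cell markers in the files summed to 34.6 to 60.6 CPM in A20iKO, 5.99 to 19.5 CPM in WT+IFNa and 8.63 to 31.3 CPM in WT, with Cd79a at 0 in all groups. Of the 3 tested, Pax5 rose in A20iKO against WT and 0 fell, where 10.7% of all genes were called either way. Pax5 averaged 16.9 ± 4.16 CPM in A20iKO and 0.580 ± 1.00 CPM in WT (edgeR adjusted p = 0.0460). It held 0, 13 and 0 counts in WT replicates 1, 2 and 3 and was tested because of its A20iKO libraries. Cd79b (15.7 ± 1.64 CPM in A20iKO and 4.20 ± 2.51 CPM in WT, edgeR adjusted p = 0.0896) and Ebf1 (0.954) did not pass. The 7 NK cell markers summed to 53.6 to 89.1 CPM in A20iKO, 90.9 to 121 CPM in WT+IFNa and 143 to 190 CPM in WT, nearly all of it Klrd1, with Ncr1 at 0 in all groups. The 12 neutrophil markers summed to 226 to 339 CPM in A20iKO, 328 to 384 CPM in WT+IFNa and 95.2 to 116 CPM in WT, with Ly6g at 0 in all groups, and the higher sums came from different genes. In A20iKO against WT, the granule genes Mpo and Prtn3 and the receptor gene Csf3r rose, and S100a8 and S100a9 fell (5.99 ± 2.02 and 4.85 ± 1.46 CPM in A20iKO, against 36.5 ± 3.96 and 47.8 ± 0.173 CPM in WT). In WT+IFNa against WT, S100a8 and S100a9 rose (121 ± 8.54 and 157 ± 18.5 CPM in WT+IFNa), as did Prtn3.

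Mast cells and basophils carry Fcer1g and Fc gamma receptors too. Their 7 markers summed to 188 to 211 CPM in A20iKO, 109 to 176 CPM in WT+IFNa and 29.6 to 71.2 CPM in WT. Mcpt8 and Cpa3 rose in both comparisons with WT and Prss34 in A20iKO against WT, while Fcer1a held at most 9 counts in any library. The 6 plasmacytoid dendritic cell markers summed to 785 to 1010 CPM in A20iKO, 792 to 932 CPM in WT+IFNa and 584 to 733 CPM in WT. In A20iKO against WT, 4 of them rose (Bst2, Tcf4, Ly6d and Cox6a2) and 1, Siglech, fell, and in WT+IFNa against WT Bst2 rose. The 6 cDC1 markers summed to 31.4 to 71.4 CPM in A20iKO, 97.8 to 121 CPM in WT+IFNa and 205 to 259 CPM in WT. Of these 6, 3 fell in A20iKO against WT (Clec9a, Cadm1 and Tlr3). In WT+IFNa against WT 1 fell, Cadm1 (edgeR adjusted p = 0.0495). Beside the calls of the neutrophil, mast cell and basophil, plasmacytoid and cDC1 lists stand the shares of all genes called either way. These were 10.7% in A20iKO against WT and 3.1% in WT+IFNa against WT. The part of any of these cells in the members' levels was not tested, and in bulk libraries fewer cells of a type and less RNA per cell cannot be told apart.

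**Figure D5:**
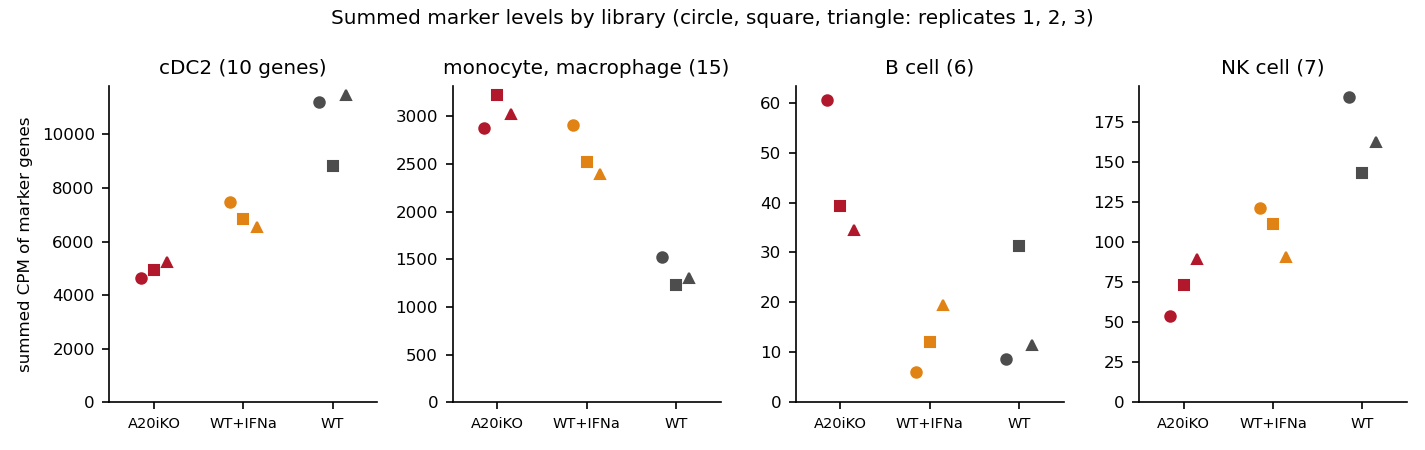
Summed CPM of marker genes (y axis, starting at 0) in each A20iKO, WT+IFNa and WT library for cDC2s, monocytes and macrophages, B cells and NK cells; symbols are replicates. The cDC2 sum, most of it H2-Ab1, is lowest in A20iKO (4632 to 5231 CPM), and the monocyte and macrophage sum is lowest in WT (1233 to 1522 CPM).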

How the data were processed

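The deposited files hold raw counts per gene symbol, 1 column per library, not normalized by the authors. The submitters' processing notes name GRCm39, STAR 2.7.10b, Bowtie2, featureCounts 2.0.6 and fastp 0.23.1, without their roles. They give no annotation or strand setting and do not say how multi-mapping reads were handled. Libraries were made with a 3′ tag kit, per the labels' protocols.

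Groups and replicate numbers came from the titles. Genes were kept with filterByExpr (minimum count 10, minimum total 15), leaving 13251 of 40879. All 9 libraries entered 1 edgeR 4.0.16 quasi-likelihood fit (R 4.3.3, TMM factors, 6 residual degrees of freedom), and p-values were Benjamini-Hochberg adjusted over all genes kept. The F statistic gave the standard error and interval of each fold change. No library pair within a group agreed within sampling noise (chi-square per degree of freedom at least 14.4), so none was merged as a repeat; this does not show that they are separate mice. Total counts of 6900598 to 10552756 set the precision; intervals on counts cover counting error only.

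Members and lists were chosen with earlier results of these data known. Named genes are the 7 members, up to 4 called genes of smallest p per list and comparison, Tnfaip3, B2m, and the 3 genes (mean at least 10 CPM) most correlated with each called member on log2(CPM + 1); Syk and the markers named were added after their values were seen. Some genes that this rule names are not reported here. Alternatives were RLE size factors, library size alone, no filter, a stricter filter, DESeq2 1.42.0, limma-voom (limma 3.58.1), only the compared groups, a replicate block, and libraries left out. Promoter windows came from RefSeq; no protein sequence was used here.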

Additional observations from a re-analysis of the deposited data

How the results depend on the processing

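The directions of the 7 members held under all alternatives run, except Fcgr3 in A20iKO against WT, whose log2 fold change of 0.055 became -0.076 without the 3 libraries high in collagen and ran from -0.11 to 0.30 with single libraries left out. The calls of Fcgr1, Fcgrt and Tyrobp in A20iKO against WT and of Fcgr1 and Fcgr2b in WT+IFNa against WT passed under all 18 alternatives. Leaving out single libraries gave log2 fold changes for Fcgr2b of -1.40 to -1.10 (A20iKO against WT) and 1.16 to 1.54 (A20iKO against WT+IFNa), for Fcgrt in WT+IFNa against WT of -0.90 to -0.75, and in A20iKO against WT+IFNa of -1.84 to -1.36 for Fcgr1 and 0.94 to 1.36 for Fcgr3.

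Some values that missed the threshold passed it elsewhere. Fcgrt in WT+IFNa against WT passed with RLE factors (-0.84), library size alone (-0.96), no filter (-0.84), the stricter filter (-0.84), DESeq2 (-0.84), limma-voom (-0.83) and only the groups compared (-0.85). In A20iKO against WT+IFNa, Fcgr1 passed with no filter (-1.67), DESeq2 (-1.65), limma-voom (-1.75) and only the groups compared (-1.64). In the same comparison Fcgr3 passed with library size alone (1.20), no filter (1.10), the stricter filter (1.12), DESeq2 (1.12) and only the groups compared (1.11), and Tyrobp with no filter (-0.60) and DESeq2 (-0.58). The cause was not tested.

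Counts over all genes moved by over 1.5 times as follows. In WT+IFNa against WT, 318 higher became 490 with DESeq2, and 93 lower became 184 with library size alone, 164 with no filter, 210 with DESeq2 and 45 with the replicate block. In A20iKO against WT+IFNa, 271 higher became 430 with no filter, 497 with DESeq2 and 469 with only the groups compared. Library size alone moved the all-gene median log2 fold change to -0.15 in WT+IFNa against WT and 0.12 in A20iKO against WT+IFNa. With single libraries left out, higher genes numbered 478 (without A20iKO replicate 3) to 750 in A20iKO against WT and 145 (without A20iKO replicate 2) to 352 in A20iKO against WT+IFNa. Lower genes numbered 43 (without WT+IFNa replicate 2) to 107 in WT+IFNa against WT and 227 (without WT+IFNa replicate 1) to 523 in A20iKO against WT+IFNa. Tnfaip3 in WT+IFNa against WT, a log2 fold change of -0.24, became 0.041 with limma-voom and ran from -0.64 to 0.79 with single libraries left out, the highest without WT replicate 1.

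Same-numbered libraries of different groups did not deviate together (correlations of -0.55 to 0.43 over 9 pairs, and 3 of 9 libraries closest to their own number), so the replicate numbers were not taken as pairing. The replicate block changed no call of a member. Among other named genes it ended the calls of Sla in A20iKO against WT (edgeR adjusted p = 0.0753), Lcp2 in WT+IFNa against WT (0.0521) and, in A20iKO against WT+IFNa, Lyn (0.0573), Lat2 (0.0642), Pik3r1 (0.0839), Trim21 (0.0958) and Tnfaip3 (0.0550). Of the ITAM signalling genes, 0 were then lower in either A20iKO comparison. Few counts and their spread, 0 to 27 in WT libraries, limit Fcgr4.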
